A study of Rattus norvegicus with 8 samples.

Results

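Brain-derived neurotrophic factor (Bdnf, ENSRNOG00000047466) and the neurotrophin receptors TrkB (Ntrk2, ENSRNOG00000018839) and TrkC (Ntrk3, ENSRNOG00000018674) were examined in the rat spinal cord below an injury. The 3 genes were chosen by identifier from the 32883 genes of the deposited table, and all 3 were found in it. The symbols come from the list that chose the genes, since the table names genes by Ensembl identifier alone. The 8 libraries hold RNA of the lower cord of rats of the outbred Sprague Dawley strain, taken 23 days after a hemisection at T9, in a stretch of cord that the series' design text calls intact. Of these, 4 came from rats trained after the injury (trained) and 4 from rats that were not (untrained). Both groups carried the injury, so no library of an uninjured cord entered the comparison. Neither the kind of training, the sex and age of the rats nor how many animals stand behind a library is stated in these sources. P-values set a difference only against the spread among these libraries, which may be technical.

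Neurotrophins are secreted proteins that support the survival of neurons and adjust their synapses. BDNF is made as a larger precursor and, once cleaved, binds TrkB. TrkC is the preferred receptor of neurotrophin-3. Both receptors are tyrosine kinases that turn ligand binding into signalling through the MAP kinase, PI3 kinase and phospholipase C pathways. Each receptor gene also makes truncated forms without the kinase, and the truncated form of TrkB is the main one in astrocytes. In the spinal cord, BDNF and its receptor are known for their part in motor neuron survival and in plasticity that depends on activity and exercise.

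Libraries were made by CEL-Seq2, which reads the 3′ end of each captured transcript and counts molecules by a random barcode, the unique molecular identifier (UMI). The deposited table counts per gene, so full-length and truncated receptors, or Bdnf transcripts from different start sites, cannot be told apart in it. RefSeq (GRCr8) lists 6 start sites for Bdnf, spread over a long stretch before the shared coding exon. The 100 bases before 2 of them are shown, because transcripts from these differently built promoters add up in the one Bdnf count. Both are on the plus strand, 5′ to 3′, at chr3:116619533-116619632 for the first start and chr3:116637758-116637857 for the fourth. Capitals mark the letters TCACGTCA, the cyclic AMP response element described for the activity-regulated promoter of rat Bdnf.
Bdnf start 1: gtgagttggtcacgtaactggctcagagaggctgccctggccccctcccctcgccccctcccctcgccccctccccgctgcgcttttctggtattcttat
Bdnf start 4: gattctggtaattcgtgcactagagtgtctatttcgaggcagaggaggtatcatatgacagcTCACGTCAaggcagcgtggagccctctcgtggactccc
The element was looked for on both strands in the 100 bases before each start. It began 38 bases before the fourth start and was found at 1 of the 6 Bdnf starts, against 53 of 33469 starts of all genes (0.158%). The palindrome TGACGTCA was found at 0 of the 6 and at 361 of all starts (1.08%). TCACGTCA was chosen because it is described for rat Bdnf, so finding it there does not show enrichment. The stretches before the fifth and sixth starts also overlap in part. A match of letters is a description and says nothing of which start was used in these cords. RefSeq promoter entries were found for 1 of the 3 genes, Bdnf.

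Library totals ran from 240895 to 453390 UMIs in untrained and from 192472 to 400934 in trained cords, so 1 UMI was worth 2.21 to 5.20 CPM (UMIs scaled to a library total of 1000000). The numbers 1 to 4 in the sample titles were treated as possible pairs, since in all 4 cases the trained and untrained library of a number departed from their group means in like ways (correlation of the departures 0.30 to 0.53 across 4086 genes). The fit across all genes called 0 of 4086 for training (edgeR quasi-likelihood test, adjusted p under 0.05, 0.00% called, 52 genes or 1.27% at an unadjusted p under 0.05; 0 genes also in DESeq2 and limma-voom). With the replicate number as a block it called 2 genes (0.0489%; 0 in DESeq2 with the block), and neither receptor was among them.

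Bdnf, the ligand, was at the edge of detection. All 8 libraries together held 21 UMIs of Bdnf, a pooled level of 8.51 CPM. The untrained libraries held 0, 2, 2 and 5 UMIs in replicates 1 to 4. The trained libraries held 7, 1, 2 and 2. Bdnf was thus seen in 7 of 8 libraries, never with more than 7 molecules, and both the lowest and the highest count came from libraries numbered 1. Of the 13048 genes with any UMI, 43.7% had fewer than Bdnf.

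The limit of detection differed between libraries. A count of 0 allows a true level of up to 3 counts of the library total. That limit was 7.81, 8.21, 12.5 and 6.62 CPM in untrained replicates 1 to 4 and 7.48, 13.8, 15.6 and 14.1 CPM in trained replicates 1 to 4. The pooled level of 8.51 CPM lay below this limit in 4 of the 8 libraries, where Bdnf at that level could be missed altogether by counting alone. The empty library, untrained replicate 1, therefore allows Bdnf at up to 7.81 CPM and does not show that the transcript was absent. At the pooled level 1.64 UMIs would be met on average in the shallowest library and 3.86 in the deepest.

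Bdnf averaged 6.20 ± 4.72 CPM without training and 10.5 ± 5.30 CPM with it (SD, n = 4 each). The untrained libraries had 0, 5.47, 8.30 and 11.0 CPM and the trained ones 17.5, 4.61, 10.4 and 9.42 CPM, so the groups overlapped. Among the 4086 genes tested, which leave out Bdnf, the groups did not overlap in 1.10%, on the TMM scale defined below. In such bulk samples, fewer cells of a type and less RNA per cell cannot be told apart. Only trained replicate 1 lay above every untrained library. The difference of 4.27 CPM did not exceed the spread of the libraries (exact permutation test, two-sided, over 70 assignments, p = 0.314, adjusted p = 0.610 over 4 such tests). With 70 assignments and 4 tests, a single result on its own could not have passed the threshold after adjustment. Counting error alone would give a coefficient of variation of 68.7% in untrained and 63.7% in trained libraries at these depths, and the observed ones were 76.0% and 50.6%.

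**Figure D1:**
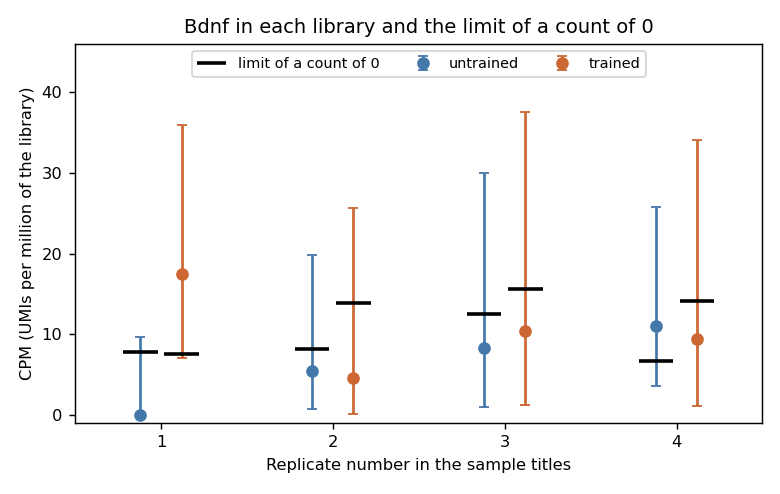
Bdnf level in CPM (y axis) by replicate number (x axis) for untrained (blue) and trained (orange) libraries. Points are single libraries, bars are exact 95% Poisson intervals, which cover counting error only, and black marks are the level allowed by a count of 0. Apart from trained replicate 1 (17.5 CPM) and untrained replicate 4 (11.0 CPM), every point lies below its own limit mark.

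Pooled over libraries, Bdnf was at 6.23 CPM in untrained cords (9 UMIs, exact Poisson 95% interval 2.85 to 11.8) and at 11.7 CPM in trained cords (12 UMIs, 6.06 to 20.5). The trained to untrained ratio was 1.88, with a 95% interval from 0.728 to 5.06 (exact binomial, counting error only). The counts thus left room both for a lower level and for one 5.06 times as high in trained cords. Trained replicate 1 held 7 of the 12 trained UMIs, and without it the ratio was 1.29 (0.340 to 4.29) and the difference in means 1.94 CPM. Without untrained replicate 1 they were 1.38 and 2.20 CPM, and without untrained replicate 4 the ratio was 2.91 (0.881 to 12.4).

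Bdnf did not enter the fit across genes, because the filter asked for 33.0 CPM, 10 UMIs at the median depth, in at least 4 libraries. With no filter, over 13048 genes, the log2 fold change of Bdnf (trained minus untrained) was 0.85 ± 0.73 (SE, edgeR adjusted p = 0.985), and 6 genes were called (0.0460%). The 95% interval ran from 0.68-fold to 4.85-fold. With the replicate number as a block it was 0.92 ± 0.76 (SE, edgeR adjusted p = 0.998), and 18 genes were called (0.138%). Pair by pair, the level of trained replicate 1 was 2.24 times the limit of its empty partner, and the 95% interval of their ratio (counting error only) began at 1.38. The other pairs gave ratios of 0.84, 1.25 and 0.85 for replicates 2 to 4, on 3, 4 and 7 UMIs in all. Their intervals, 0.014 to 16.2, 0.091 to 17.3 and 0.081 to 5.22, all included 1. Neighbouring genes in abundance were no better measured. Among the 1023 genes with 17 to 26 UMIs in all, the 95% interval reached a median of 1.45 on the log2 scale to either side of the estimate, or 2.74-fold, and for 0% of them did it exclude a 2-fold change in both directions.

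TrkB, the BDNF receptor, was well measured. Ntrk2 had 1828 UMIs and ranked 189 of the 13048 genes with any UMI. Its untrained libraries held 319, 299, 194 and 284 UMIs in replicates 1 to 4, or 830, 818, 805 and 626 CPM. Its trained libraries held 339, 136, 120 and 137 UMIs, or 846, 627, 623 and 645 CPM. The 8 levels lay in 2 narrow ranges, from 623 to 645 and from 805 to 846 CPM, each with libraries of both groups. After scaling by TMM (the trimmed mean of M values, which scales libraries so that most genes agree between them) the libraries spread more evenly, from 630 to 924 CPM in untrained and from 700 to 851 CPM in trained cords. The groups overlapped on the CPM scale, as untrained replicate 4 lay among the lower trained libraries and trained replicate 1 above every untrained one.

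Ntrk2 averaged 770 ± 96.3 CPM without training and 685 ± 107 CPM with it (SD, n = 4 each), a difference smaller than the spread (exact permutation test, two-sided, p = 0.457, adjusted p = 0.610). On the TMM scale Ntrk2 had a log2 fold change of -0.09 ± 0.19 (SE, edgeR adjusted p = 0.99998), against a median of 0.01 over all genes tested. The 95% interval ran from 0.709-fold to 1.24-fold. With the replicate number as a block it was -0.08 ± 0.13 (SE, edgeR adjusted p = 0.994), with an interval from 0.784-fold to 1.14-fold. A 2-fold change in either direction lay outside both intervals.

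The pairs of Ntrk2 gave ratios on both sides of 1, and whether the pairs differ was not tested. The trained to untrained ratio of CPM was 1.02 in replicate 1 (95% interval 0.871 to 1.19, counting error only) and 1.03 in replicate 4 (0.834 to 1.27). It was 0.767 in replicate 2 (0.622 to 0.942) and 0.774 in replicate 3 (0.611 to 0.977). On the CPM scale the intervals of replicates 2 and 3 lay below 1 and those of replicates 1 and 4 included it. On the TMM scale all 4 intervals included 1: the ratios of replicates 2 and 3 were 0.823 (0.667 to 1.01) and 0.796 (0.629 to 1.005), and that of replicate 4 was 1.17 (0.946 to 1.44). The intervals compare single libraries, not conditions.

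TrkC, the receptor of neurotrophin-3, passed the test of the replicate number given below, as did 16.0% of genes. That call was lost in 2 alternatives, and no difference with training was detected. Ntrk3 had 966 UMIs and ranked 447 of the genes with any UMI. Its untrained libraries held 127, 161, 127 and 141 UMIs in replicates 1 to 4, or 331, 440, 527 and 311 CPM. Its trained libraries held 143, 86, 103 and 78 UMIs, or 357, 397, 535 and 367 CPM. In both groups replicate 3 was the highest and replicate 2 the next, and the 2 libraries of a number differed by at most 1.18-fold on this scale.

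Ntrk3 averaged 402 ± 101 CPM without training and 414 ± 82.5 CPM with it (SD, n = 4 each; exact permutation test, two-sided, p = 0.829, adjusted p = 0.829). On the TMM scale trained minus untrained came to 0.12 ± 0.24 in log2 (SE, edgeR adjusted p = 0.99998), with a 95% interval from 0.761-fold to 1.55-fold. With the replicate number as a block it was 0.13 ± 0.13 (SE, edgeR adjusted p = 0.994), with an interval from 0.909-fold to 1.32-fold. Its sign was not stable: it was -0.25 with the library total as a covariate, -0.0086 without untrained replicate 4 and -0.068 without trained replicate 3. The pairs gave trained to untrained ratios of 1.08, 0.901, 1.02 and 1.18 for replicates 1 to 4 on the CPM scale, and every one of the 4 counting intervals included 1. On the TMM scale the ratios were 1.08, 0.966, 1.04 and 1.34, and the interval of replicate 4 (1.003 to 1.78) lay just above 1.

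**Figure D2:**
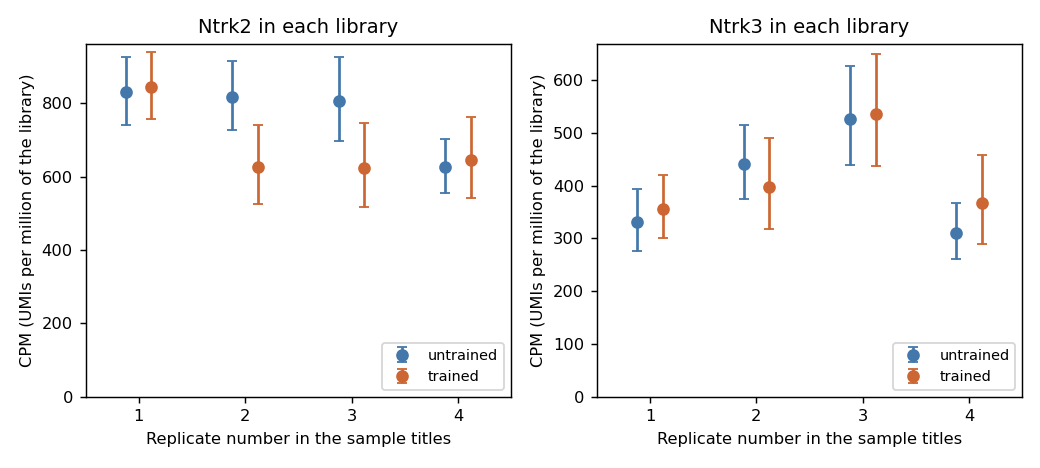
Levels of Ntrk2 (left) and Ntrk3 (right) in CPM (y axis) by replicate number (x axis) for untrained (blue) and trained (orange) libraries, with exact 95% Poisson intervals for counting error. For Ntrk2 the trained points of replicates 2 and 3 (627 and 623 CPM) lie below their untrained partners (818 and 805 CPM), whereas Ntrk3 peaks at replicate 3 in both groups (527 and 535 CPM).

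The effect of the replicate number was tested with training in the model. For Ntrk3 the numbers spread over 0.84 on the log2 scale, from the lowest to the highest, and the test passed (edgeR quasi-likelihood F test, adjusted p = 0.00903). It was 1 of 654 genes that did (16.0% of 4086), and 6.63% of genes had a smaller p. For Ntrk2 the numbers spread over 0.32, against a median of 0.70 over all genes tested, most with fewer UMIs than Ntrk2. The test did not pass for Ntrk2 (edgeR adjusted p = 0.482). With no filter, Bdnf did not pass either (edgeR adjusted p = 0.989, with 6.32% of genes called). That the effect of the number differs between the 2 receptors was not tested. The biological coefficient of variation was 23.8% for Ntrk3 and 19.1% for Ntrk2 without the block, and 10.6% and 11.6% with it. The common value over all genes tested fell likewise, from 23.1% to 12.5%, so the fall is not particular to the receptors.

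The Ntrk3 call was lost in 2 alternatives. Without untrained replicate 3 the spread was 0.81 and the edgeR adjusted p was 0.0549, with 14.3% of genes called. Replicate 3 was the shallowest untrained and the shallowest trained library, with 240895 and 192472 UMIs. The 4 libraries of 192472 to 240895 UMIs had 367 to 535 CPM of Ntrk3, and the 4 of 365523 to 453390 UMIs had 311 to 440 CPM. With the library total as a covariate, added after seeing the data, the spread was 0.68 and the call was lost (edgeR adjusted p = 0.345), in a model that called 216 genes (5.29%) in place of 654. What the number stands for is not given in the labels.

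Within a library, the ratio of the 2 receptors needs no scaling between libraries, but it can still vary with depth, as given below. UMI counts were not divided by transcript length, because each molecule is counted once at its 3′ end, and how well the ends of the 2 genes were captured was not tested. The ratio of Ntrk2 to Ntrk3 UMIs was 2.51, 1.86, 1.53 and 2.01 in untrained replicates 1 to 4. It was 2.37, 1.58, 1.17 and 1.76 in trained replicates 1 to 4. Ntrk2 counts exceeded Ntrk3 counts in all 8 libraries, and the order of the numbers was the same in both groups, with replicate 1 highest, then 4, 2 and 3. In trained replicate 3, the lowest, the 95% interval of 0.888 to 1.53 (exact binomial, counting error only) included equal counts.

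The ratio was lower in the trained library in 4 of 4 pairs, with log2 differences of -0.08, -0.23, -0.39 and -0.20 in the order of the numbers. In pairs 2 to 4 the trained library was also the shallower one. Training and depth cannot be told apart there, and the part of depth was not tested. The 4 libraries of 192472 to 240895 UMIs had ratios of 1.17 to 1.76. Those of 365523 to 453390 UMIs had ratios of 1.86 to 2.51. The mean ratio was 1.98 ± 0.410 without training and 1.72 ± 0.501 with it (SD, n = 4 each), and the log2 difference was -0.23. The groups overlapped, and the difference was smaller than their spread (exact permutation test, two-sided, p = 0.4, adjusted p = 0.610). Compared within pairs it gave p = 0.125 (two-sided exact sign-flip permutation test), the smallest that sign flips of 4 pairs can give, so that test could not pass the threshold. The mean of the 4 paired log2 differences was -0.23 with an SD of 0.13. The common ratio over the 4 pairs, computed after seeing the data, was 0.864 with an interval from 0.733 to 1.02 that covers counting error only and includes 1. Without trained replicate 3 the log2 difference between groups was -0.05, without untrained replicate 1 it was -0.10, and without trained replicate 1 and untrained replicate 3 it was -0.40 and -0.34.

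**Figure D3:**
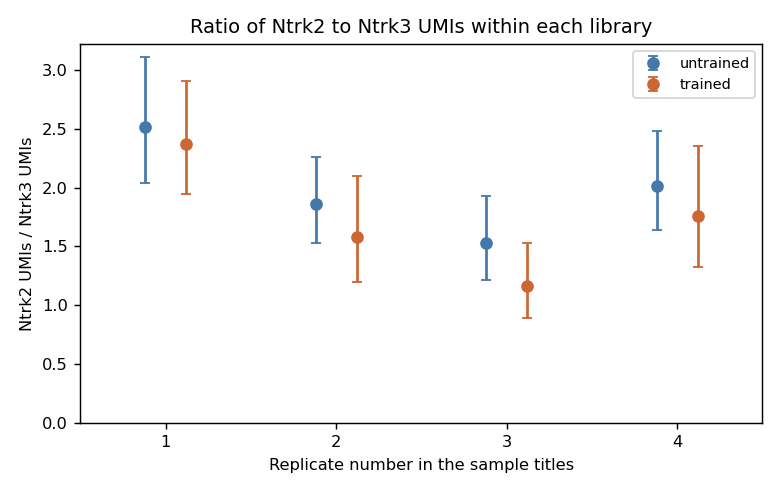
Ratio of Ntrk2 to Ntrk3 UMIs (y axis) by replicate number (x axis) in untrained (blue) and trained (orange) libraries, with exact 95% binomial intervals for counting error. The trained point lies below the untrained one at every number, and the 2 intervals of each number overlap. At numbers 2 to 4 the trained library was also the shallower one.

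Among the 4085 other genes kept by the filter, the pattern of log2 CPM over the 8 libraries most like that of Ntrk3 was that of ENSRNOG00000000438 (Pearson's r = 0.98, Spearman's rho = 0.90), and 14 genes had r over 0.9. Most like Ntrk2 was ENSRNOG00000011979 (r = 0.91, rho = 0.76), a gene with 90 UMIs in all, and 2 genes had r over 0.9. The receptors themselves were not close in pattern: with r = 0.32 and rho = 0.29, Ntrk3 was 946th in likeness to Ntrk2. These values describe 8 libraries that share replicate numbers and depths, and the best match was picked out of 4085.

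**Figure D4:**
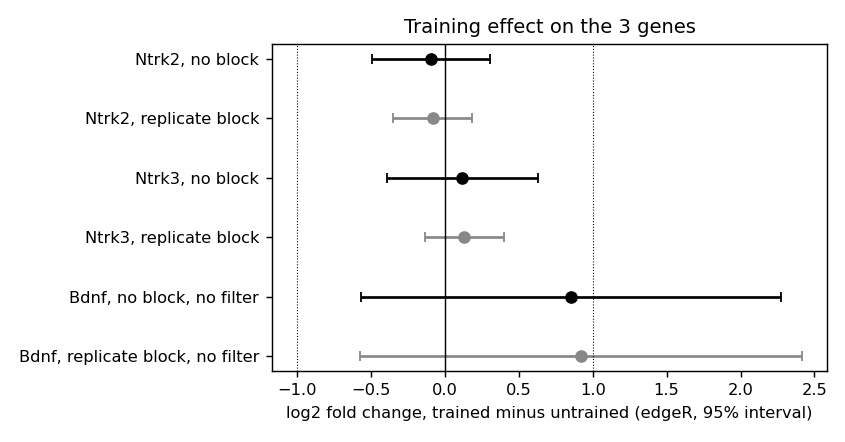
Log2 fold change of trained minus untrained libraries (x axis, 95% interval) for Ntrk2, Ntrk3 and Bdnf in edgeR, without (black) and with (grey) the replicate number as a block; dotted lines mark a 2-fold change. The receptor intervals lie inside the dotted lines, whereas the Bdnf intervals, from fits with no filter, pass beyond the upper line.

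Bdnf, with the fewest counts, was measured least precisely of the 3 genes. In the fit with no filter, genes with 1464 to 2272 UMIs, around Ntrk2, had 95% intervals reaching a median of 0.45 on the log2 scale to either side, and genes with 773 to 1207 UMIs, around Ntrk3, 0.46. All 125 and all 248 of these genes excluded a 2-fold change. For Bdnf a 2-fold fall lay outside the intervals over all 8 libraries given above but inside the one without trained replicate 1, and a 2-fold rise lay inside all of these. Other ligands, receptors and effectors of the pathway, and markers of the cell types of the cord, were not analysed here, because none of the identifiers of the deposited table is paired with a symbol in the reference tables used.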

How the data were processed

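RNA of the lower spinal cord was measured in 8 libraries. The authors deposited 1 table of raw UMI counts for 32883 Ensembl genes, without normalisation. Libraries were made by CEL-Seq2 and run on an Illumina HiSeq1500, per the labels' protocols. HISAT2 2.0.4, HTSeq 0.6.0 and Rnor_6.0 are named in the submitters' processing notes. Not given in the sources used here are the UMI length, the collapsing of reads to UMIs and the annotation release. The highest count of any gene was 3764 to 4049 across the 8 libraries, near the 4096 sequences of a 6-base UMI. Library totals and CPM values were not corrected for this. With counts corrected for a 6-base UMI, the log2 fold changes were -0.10 for Ntrk2 and 0.12 for Ntrk3.

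Groups come from the labels, and replicate numbers from the titles. The whole table was fitted in R 4.3.3 with edgeR 4.0.16 (filterByExpr with a minimum count of 10 in 4 libraries, TMM scaling, quasi-likelihood F test, Benjamini-Hochberg adjustment over all genes tested, threshold 0.05); 4086 genes and 2 of the 3 members were kept. SE is the fold change over the square root of F. CPM values use all UMIs of a library unless called TMM-scaled. A prior count of 2 was added for log2 CPM. Poisson and Clopper-Pearson intervals are exact 95% intervals. Single values were compared by exact permutation tests in Python 3.11.15. The scripts were tested on simulated data. Alternatives were other scalings and filters, DESeq2 1.42.0, limma-voom 3.58.1, a robust fit, the block, depth as a covariate, counts corrected for a 6-base UMI and leaving out libraries.

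Same-numbered libraries correlated in their deviations by 0.34, 0.34, 0.30 and 0.53 (criterion 0.1 in every pair), and each correlated best with its own number; this pairing comes from the data, as the meaning of a number is not in the labels. The named genes are the 3 members and, for each one kept, the gene of highest Pearson's r. Members, lists and tests were chosen with earlier results of these data known.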

Additional observations from a re-analysis of the deposited data

Results flagged for a closer look

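Of 8 sets of 4 libraries examined (the 3 genes and the receptor ratio in each group), 2 held a library far from the other 3, where chance gives about 1 in 20. Both were Ntrk2 on the CPM scale: untrained replicate 4, at 626 CPM, lay below the other untrained libraries by 0.877 of the range, and trained replicate 1, at 846 CPM, lay above the other trained ones by 0.902 of the range (limit 0.829). With TMM-scaled CPM the same gaps were 0.699 and 0.755 of the range, under the limit. Trained replicate 1 was also the deepest trained library and untrained replicate 4 the deepest of all, with 400934 and 453390 UMIs; the part of depth in these values was not tested. Without untrained replicate 4 the TMM-scaled log2 fold change of Ntrk2 was -0.20, and without trained replicate 1 it was -0.17 (edgeR adjusted p = 0.999 and 0.99989).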

How the results depend on the processing

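Ntrk2 kept its negative sign and stayed short of the threshold under all 31 alternatives (log2 fold change -0.20 to -0.012). Ntrk3 stayed short of it in 31 of 31 and turned sign in 3: with the library total as a covariate (-0.25), without untrained replicate 4 and without trained replicate 3 (-0.068 to 0.32 with 1 library left out). Why was not tested. With no scaling beyond library totals the median of all genes was -0.07 and the fold changes were -0.17 and 0.04. The replicate block changed no call of a member (log2 fold changes -0.08 for Ntrk2 and 0.13 for Ntrk3; paired p of 0.625 for the Bdnf difference in CPM). Bdnf lay between 0.87 and 1.01 in the 4 other fits that included it. Its CPM difference was 1.94 to 6.22 and its pooled ratio 1.29 to 2.91 with 1 library left out. A count of 0 over the summed totals of a group allows 2.08 CPM in untrained and 2.93 CPM in trained cords. The Ntrk3 call by number was lost without untrained replicate 3 (spread 0.81; 0.81 to 0.95 over the 8 libraries left out) and with the library total as a covariate (0.68). The count of genes called for training was 6 with no filter, 0 to 2 with 1 library left out, and 2 with the replicate block. Combined with the block it was 2 in limma-voom and with upper-quartile scaling, 1 with RLE scaling, 1 with no scaling, 0 in DESeq2, 18 with no filter, and 0 to 8 without 1 replicate number. The causes were not tested. Alternatives combined with the block, other than leaving out a number, were chosen after seeing the data.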
